A study of Mus musculus with 12 samples.

Results

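Fto and the AlkB-type genes of the mouse other than Alkbh5 were followed across oocyte maturation in the presence and absence of Alkbh5. The 8 genes were Alkbh1, Alkbh2, Alkbh3, Alkbh4, Alkbh6, Alkbh7, Alkbh8 and Fto. They were taken by symbol, with no measured value used, out of the 56691 genes of the count table, and the question was whether a related enzyme changes when Alkbh5 is lost. All 8 had a row in the table, and all 8 passed the filter on low counts in every comparison.

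The study sequenced poly(A) RNA from mouse oocytes of 2 genotypes at 3 stages, with 2 libraries per group and 12 in all. The stages were GV, in which the nucleus (germinal vesicle) is intact and meiosis is arrested in prophase, GVBD, in which the nuclear envelope has broken down, and MII, the second arrest at which an egg is normally fertilised. WT oocytes were set against Alkbh5-/- oocytes (KO), from mice in which exon 1 of Alkbh5 was removed with CRISPR-Cas9. Oocytes of both genotypes came from 3-week-old C57BL/6 females primed with the gonadotropin PMSG, were stripped of follicle cells, and were pooled and matured in culture. The deletion was present in every tissue, so the follicle cells around a KO oocyte had also lacked Alkbh5. In the study's cultures most KO oocytes did not break down the germinal vesicle and few extruded a polar body, so KO libraries labelled GVBD and MII may hold oocytes at an earlier stage of meiosis.

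AlkB-type enzymes use iron, oxygen and 2-oxoglutarate to oxidise a methyl group on DNA, RNA or protein, after which the group leaves as formaldehyde. ALKBH5 and FTO are the enzymes known to remove m6A, the most common internal modification of mRNA, and FTO also acts on m6Am, the methylated adenosine next to the cap. The other members have other substrates. ALKBH2 and ALKBH3 repair alkylated DNA, ALKBH1 and ALKBH8 modify tRNA, ALKBH4 removes a methyl group from actin, ALKBH7 is a mitochondrial protein linked to necrosis and fat metabolism, and the substrate of ALKBH6 is not settled. Fully grown oocytes make almost no new RNA, so during maturation an mRNA changes mainly by decay and by the length of its poly(A) tail, and libraries captured on that tail read both.

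Since capture depended on the poly(A) tail, the 3′ ends of the annotated mRNAs are shown first, each as a stretch of 24 to 30 bases around the poly(A) signal, the hexamer that directs cleavage and tailing, which is in capitals. The stretch runs to the end of 1 annotated transcript, except in Alkbh2, Alkbh4, Alkbh7 and Fto, where it stops a few bases before that end. The first 4 lines hold the members whose level was lower at MII than at GV in WT oocytes, and the last 4 those for which that difference did not pass the test. All lie in the last exon, within the 3′ untranslated region, and are written 5′ to 3′ as RNA-sense DNA letters from GENCODE M21 on GRCm38.
Alkbh3 (chr2:93980637-93980665, minus strand): gcaaATTAAAaattgctctggctgtactc
Alkbh7 (chr17:56999288-56999317, plus strand): gctgATTAAAaaaaaaaaaaaactaacaag
Alkbh6 (chr7:30314280-30314304, plus strand): tccaAATAAAcagaaaataccttta
Alkbh1 (chr12:87426169-87426192, minus strand): ggtaATTAAAttttctttcatgtg
Alkbh2 (chr5:114123927-114123956, minus strand): aagaAATAAAatgtctttatttattattgt
Fto (chr8:91668407-91668436, plus strand): acacAATAAAgaattaaacgatgagaagcc
Alkbh8 (chr9:3391128-3391154, plus strand): acaaAATAAActccttctataaattgc
Alkbh4 (chr5:136141581-136141610, plus strand): tcatAATAAAagaaaaaccttggtctcatg
Within the last 50 bases, on the transcript strand, 3 of the 8 members (Alkbh1, Alkbh3 and Alkbh7) carried the variant signal ATTAAA with no AATAAA, and the other 5 carried AATAAA. Over the annotated ends of 21765 protein-coding genes, 58.9% held AATAAA and 12.7% held ATTAAA alone. TTTTAT, the core of the element bound by the cytoplasmic polyadenylation factor CPEB, was searched in the last 150 bases on the transcript strand. It occurred in Alkbh1 only among the 8, starting 109 and 43 bases before the end, and in 16.8% of all coding genes. GGACT, a core of the m6A consensus, was found 3.26 times per kilobase in the Alkbh3 transcript and 2.92 times in Alkbh4, against a median of 1.02 over all genes, and not at all in Alkbh6 and Alkbh7. These are matches of letters in 1 annotated transcript per gene, and neither m6A nor tail length was measured in these libraries.

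Endogenous counts per library lay between 28335815 and 39409401, and a further 221927 to 838409 counts fell on ERCC sequences, synthetic RNAs added in equal amount to each tube. Between 19837 and 24436 genes had a count. All 12 oocyte markers were detected in every group. Markers of cumulus and granulosa cells summed to between 39.7 and 87.5 CPM (counts scaled to a common library total), against 24485 to 39072 for the oocyte markers. Of the 12 cumulus and granulosa markers only Amhr2 was at 0 in every library, while Cyp19a1, Nr5a2, Kitl and Fshr were detected in all. The sum of these markers was higher in KO at each stage without overlap, at 49.3 to 53.8 against 39.7 to 48.8 CPM in WT at GV, 52.5 to 73.6 against 42.1 to 52 at GVBD and 60.9 to 87.5 against 48.2 to 55.4 at MII. That sum leans on Cyp19a1, which had the highest count of the 12 in every library (577 to 2225). Single markers went both ways. Inha had 46 and 123 counts in WT and 28 and 9 in KO at GV. Fshr had 17 and 32 in WT and 221 and 157 in KO at GVBD. Whether KO libraries held more RNA of follicle cells was not tested. Transcripts of other cells stood out in particular groups. All 6 blood markers had counts in every group, and their sum was 2917 and 3200 CPM in the WT GVBD libraries against 4.58 and 8.86 in KO GVBD, whereas the genotypes overlapped at GV (16.5 and 5527 in WT, 3062 and 5311 in KO) and at MII (9.16 and 38.5 in WT, 1.39 and 916 in KO). The keratinocyte genes Krt5, Krt14 and Krt1 had 434 to 1278 counts in the WT GVBD libraries and 0 in the other 10. Krt10, also on the keratinocyte list, did not share this pattern. It had 127 to 988 counts in every library, with 721 and 798 in WT GVBD and the most in WT MII (870 and 988). The muscle markers summed to between 0.0336 and 155 CPM, and were apart between the genotypes at MII, with 62.1 and 140 in WT against 0.0649 and 2.68 in KO. The part of these transcripts in the values below was not tested. Alkbh5 checked the labels. It had 5355 and 6031 counts in the WT GV libraries and 143 and 74 in KO GV, and its ERCC-scaled level was lower in KO at each stage (log2 fold change -5.41 ± 0.52 SE with edgeR adjusted p = 0.046 at GV, -6.43 ± 0.70 with 1.26e-05 at GVBD, and -5.89 ± 0.99 with 3.6e-06 at MII). The remaining KO reads come from a gene of which 1 exon was removed.

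Values below are ERCC-scaled read counts unless another unit is given, meaning counts divided by the library's ERCC total relative to the mean of all libraries. They follow the amount of an mRNA per tube, and a smaller number of oocytes and less RNA per oocyte cannot be told apart on this scale. Fold changes carry the standard error of edgeR's quasi-likelihood fit, and a gene was called different at an adjusted p under 0.05 and a change of at least 2-fold.

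The members differed widely in abundance. Levels were compared between genes only after division by the length of all annotated exons of a gene, as ERCC-scaled counts per kilobase (mean ± SD, n = 2 libraries). Alkbh7 was the most abundant member in WT GV oocytes at 1676 ± 278 per kilobase, a level above that of 94.1% of the 25163 genes with a count in that group. Alkbh5 itself stood at 1241 ± 254. Alkbh2 followed at 285 ± 33.1, then Alkbh6 at 175 ± 22.4, Alkbh3 at 81.5 ± 9.07 and Alkbh1 at 30.3 ± 0.739. Each of these steps from one member to the next was wider than the distance between the libraries of either neighbour. Alkbh8 (14.1 ± 1.20) and Fto (11.2 ± 1.09) were close together, with Alkbh8 libraries at 13.2 and 14.9 and Fto libraries at 10.5 and 12. Alkbh4 was lowest at 5.01 ± 2.33, from only 6 and 10 reads. Part of this order depends on the length used. With the length of the single transcript shown above, Alkbh6 (557) stood above Alkbh2 (296) and Fto (41.1) above Alkbh8 (16.0), while Alkbh7 stayed first and Alkbh4 last.

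**Figure D1:**
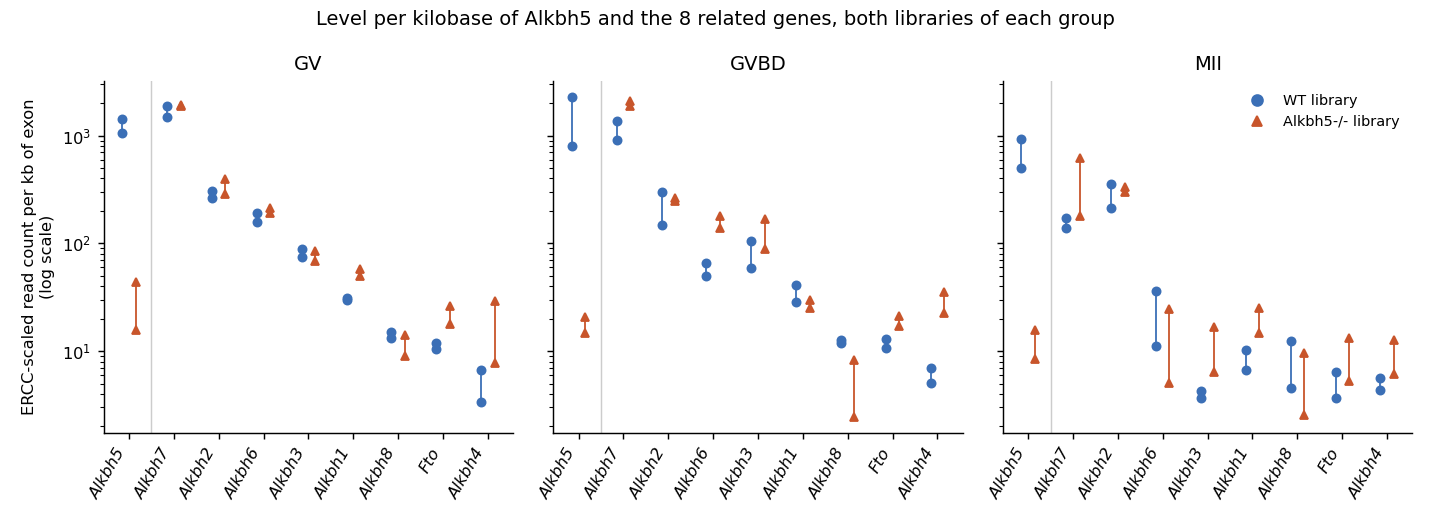
ERCC-scaled read counts per kilobase of exon (log scale) for Alkbh5 and the 8 related genes at GV, GVBD and MII. Points are libraries, circles for WT and triangles for Alkbh5-/-, and lines join the 2 libraries of a group. Alkbh7 sits at 1480 and 1873 in the WT GV libraries while Fto sits at 10.5 and 12, and at MII Alkbh2 and Alkbh7 lie apart from the other 6 members.

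Removal of Alkbh5 was accompanied by no called change in any of the 8 members. The count was 0 of 8 at GV, where 0.0977% of 19452 tested genes were called, 0 of 8 at GVBD (2.54% of 19462), 0 of 8 at MII (0.803% of 17566), and 0 of 8 with all stages fitted together (1.26% of 22004). At an unadjusted p under 0.05, edgeR's test gave 2 members at GV (Alkbh1 and Fto, against 17.9% of all genes), 2 at GVBD (Alkbh4 and Alkbh6, against 14.9%), none at MII (against 7.32%) and 3 over all stages (Alkbh4, Alkbh7 and Fto, against 18.8%). DESeq2 with the same scaling also called 0 of 8 in each of the 4 comparisons. Its fits called 666 of 19452 genes at GV, 901 of 19462 at GVBD, 346 of 17566 at MII and 1356 of 22004 over all stages. On the ERCC scale the typical gene was itself somewhat higher in KO, by a median log2 change of 0.36 at GV, 0.23 at GVBD, 0.30 at MII and 0.29 over all stages, and with TMM scaling, which sets the bulk of genes level, these medians were 0.02, -0.04, -0.01 and 0.02. The members' median was 0.23 at GV, 0.65 at GVBD, 0.90 at MII and 0.62 over all stages.

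Fto, the second m6A demethylase, was the member on which the question of a replacement for Alkbh5 turned. Its level was 136 and 157 in the WT GV libraries, 141 and 170 in those of GVBD and 83.7 and 48.2 in those of MII. The KO libraries stood at 340 and 232 (GV), 275 and 221 (GVBD) and 173 and 69.5 (MII). KO libraries lay above WT libraries at GV and GVBD, and at MII the lower KO library fell between the WT libraries. With TMM scaling it was the GVBD groups that overlapped, at 2.87 and 5.27 CPM in WT and 5.22 and 5.12 in KO. Groups that did not overlap in this direction were common, with 42.2% of all genes at GV and 30.3% at GVBD. The log2 fold change was 0.96 ± 0.38 at GV (95% CI 0.03 to 1.9, adjusted p = 0.269), 0.67 ± 0.58 at GVBD and 0.88 ± 1.02 at MII, with adjusted p of 0.646 and 1. The GVBD value was 0.32 with TMM scaling, and the MII value was 0.08 without KO MII library 1. Over all stages it was 0.84 ± 0.32 (95% CI 0.15 to 1.52, unadjusted p = 0.0199, adjusted p = 0.181), or 0.55 above the median gene. All 20 alternatives, settings and libraries left out, kept the sign of the all-stage value, between 0.50 and 0.97, with adjusted p between 0.0728 and 0.397. Dropping the fold minimum cannot move this value, and the others refit mostly the same libraries, so the 20 are not independent. These values rest on 97 to 201 Fto reads per library, and a difference of 2-fold lies within the unadjusted 95% interval in each of the 4 comparisons.

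In amount, Fto mRNA was a small quantity beside the Alkbh5 mRNA of WT oocytes. Per kilobase of all annotated exons, WT oocytes held 110 times as much Alkbh5 as Fto at GV, 129 times at GVBD and 142 times at MII. With the length of 1 transcript each, these ratios were 31.5, 36.9 and 40.6, since the annotated exons of Fto add up to several times its shown transcript. In KO oocytes the reads left on Alkbh5 came to 1.35, 0.936 and 1.3 times those of Fto per kilobase of all exons, and to 0.385, 0.267 and 0.372 times by transcript length. The KO minus WT difference in Fto came to 0.886% of the loss of Alkbh5 at GV, 0.466% at GVBD and 0.601% at MII per kilobase of all exons, or 3.10%, 1.63% and 2.10% by transcript length. These shares compare mRNA amounts only, as neither protein nor enzyme activity was measured.

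**Figure D2:**
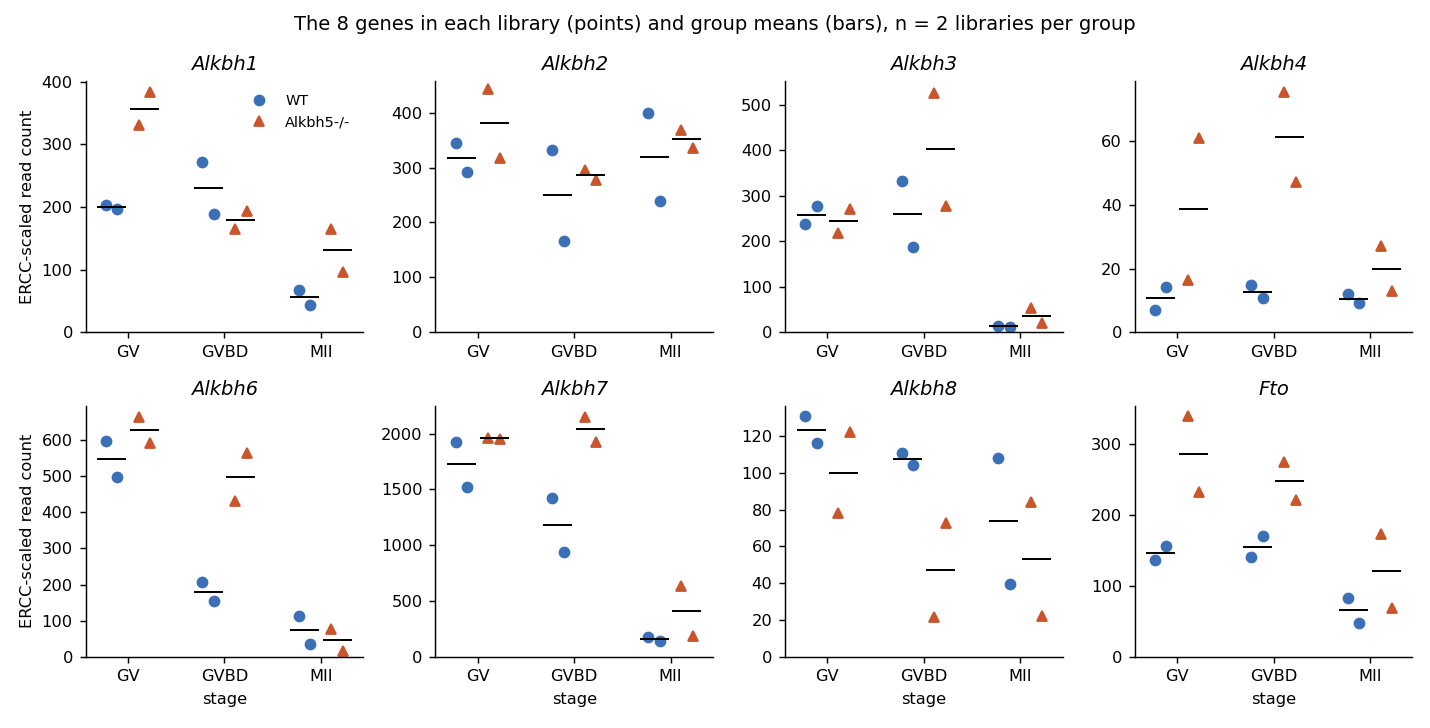
ERCC-scaled read counts of the 8 genes in every library, by stage, with circles for WT, triangles for Alkbh5-/- and bars for group means (n = 2). Fto lies higher in KO at GV and GVBD, Alkbh3, Alkbh6 and Alkbh7 are low at MII in both genotypes, and Alkbh2 keeps its ERCC-scaled level.

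Alkbh4, the actin demethylase gene, had the largest point estimate and the fewest reads. WT libraries held 6 and 10 reads at GV, 11 and 12 reads at GVBD and 15 and 19 reads at MII. KO libraries held 9 and 48 reads (GV), 46 and 43 (GVBD) and 27 and 18 (MII). On the ERCC scale the KO libraries lay above the WT libraries at all 3 stages, narrowly at GV (16.4 and 61.2 against 7.12 and 14.1) and at MII (27 and 12.9 against 12 and 9.16) and widely at GVBD (75.6 and 47.4 against 14.8 and 10.6). Of all genes, 42.2% were apart in this direction at GV, 30.3% at GVBD and 22.1% at MII. With TMM scaling the Alkbh4 groups overlapped at GV. The log2 fold change was 1.87 ± 1.1 at GV (adjusted p = 0.433), 2.27 ± 0.95 at GVBD (95% CI 0.29 to 4.24, adjusted p = 0.247), 0.91 ± 1.5 at MII (adjusted p = 1), and 1.68 ± 0.59 over all stages (95% CI 0.43 to 2.93, adjusted p = 0.150). Restricted to genes with at least 10 counts in every compared library, edgeR called the same GVBD value (adjusted p = 0.0388). That setting called 527 of 15321 genes, and the WT libraries, at 11 and 12 reads, only just passed its filter.

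Alkbh6 differed most at GVBD. Its ERCC-scaled counts there were 207 and 154 in WT and 432 and 565 in KO. The groups did not overlap, as was so for 30.3% of all genes in this direction. With edgeR the log2 fold change was 1.47 ± 0.58 (95% CI 0.27 to 2.67, unadjusted p = 0.0189, adjusted p = 0.208). The WT GVBD libraries also carried Krt5, Krt14 and Krt1 and the blood transcripts, whose part in this difference was not tested. At GV the levels were 597 and 498 in WT and 663 and 592 in KO, and at MII 112 and 34.7 in WT and 77.1 and 15.8 in KO, overlapping at both. The point estimate was thus 0.20 ± 0.27 at GV (-0.13 with TMM scaling) and -0.66 ± 1.05 at MII, and over all stages 0.34 ± 0.46 (adjusted p = 0.731).

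Alkbh7, the mitochondrial member, was at 1927 and 1523 in WT GV oocytes and at 1959 and 1952 in KO. At GVBD the levels were 1420 and 936 in WT and 2149 and 1923 in KO, and at MII 177 and 142 in WT and 636 and 186 in KO. Both KO libraries exceeded both WT libraries at every stage on the ERCC scale, by a narrow margin at GV and, for 1 of the 2 KO libraries, at MII. Of all genes, 42.2% were apart in this direction at GV, 30.3% at GVBD and 22.1% at MII. With TMM scaling the Alkbh7 groups overlapped at GV. The log2 fold change was 0.18 ± 0.21 at GV, where TMM scaling turned it to -0.14, 0.79 ± 0.52 at GVBD and 1.37 ± 0.93 at MII, where it was 0.23 without KO MII library 1. Over all stages it was 0.78 ± 0.31 (95% CI 0.12 to 1.44, unadjusted p = 0.0244, adjusted p = 0.196). Because Alkbh7 is so abundant, it made up most of the summed level of the 8 genes at GV and GVBD. That sum was 2279 ± 322 per kilobase in WT and 2626 ± 70.6 in KO at GV. It was 1574 ± 492 in WT and 2603 ± 198 in KO at GVBD, and 495 ± 155 in WT and 786 ± 374 in KO at MII. At MII, Alkbh2 gave 286 and Alkbh7 155 of the WT sum, and 315 and 399 of the KO sum.

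The tRNA-modifying members pointed in different directions. Alkbh8, whose product methylates the wobble uridine of some tRNAs, was the only member with a negative estimate over all stages (log2 fold change -0.65 ± 0.46, 95% CI -1.63 to 0.33, adjusted p = 0.472). Its levels were 131 and 116 in WT and 78.3 and 122 in KO at GV, 111 and 104 in WT and 21.4 and 72.7 in KO at GVBD, and 108 and 39.5 in WT and 84.1 and 22.2 in KO at MII. On the ERCC scale the groups were apart at GVBD only, where 17.9% of all genes did not overlap in this direction. There 1 KO library held just 13 reads. With TMM scaling the Alkbh8 groups were also apart at GV (3.2 and 2.86 CPM in WT, 1.34 and 2.58 in KO), as was so for 24.5% of all genes in this direction.

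Alkbh1, which acts on tRNA methylation in the cytoplasm and in mitochondria, was at 203 and 196 in WT and 330 and 384 in KO at GV. At GVBD it was at 272 and 188 in WT and 164 and 194 in KO, and at MII at 67.8 and 43.9 in WT and 165 and 96.7 in KO. The KO libraries were above the WT libraries at GV and at MII and overlapped them at GVBD. In this direction 42.2% of all genes were apart at GV and 22.1% at MII. With TMM scaling Alkbh1 was lower in KO at GVBD without overlap (5.55 and 5.82 CPM in WT, 3.13 and 4.48 in KO), as was so for 27% of all genes. On the ERCC scale the log2 fold change was 0.84 ± 0.32 at GV (95% CI 0.05 to 1.63, adjusted p = 0.259), -0.36 ± 0.58 at GVBD and 1.23 ± 1.02 at MII, with 0.57 ± 0.34 over all stages (adjusted p = 0.388). Slirp, on the opposite strand, shares 1.86% of the exonic bases of Alkbh1. Its log2 fold change was 0.13 ± 0.15 at GV, -0.05 ± 0.51 at GVBD and 2.63 ± 0.85 at MII (edgeR adjusted p = 0.128 at MII). The part of Slirp reads in the Alkbh1 values was not tested.

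On the ERCC scale the DNA repair members showed no separation of the genotypes at GV. Alkbh3 was at 237 and 278 in WT and 217 and 270 in KO (log2 fold change -0.08 ± 0.34, 95% CI -0.92 to 0.76). Alkbh2 was at 344 and 292 in WT and 444 and 318 in KO (0.26 ± 0.33, 95% CI -0.56 to 1.07, and -0.08 with TMM scaling). With TMM scaling Alkbh3 was lower in KO at GV without overlap (5.83 and 6.87 CPM in WT, 3.7 and 5.69 in KO), as was so for 24.5% of all genes. At MII, Alkbh3 was at 13.6 and 11.6 in WT and at 53.0 and 20.1 in KO, apart from each other, with the highest estimate of the 8 members at that stage (1.53 ± 1.31, 95% CI -1.03 to 4.10, adjusted p = 1, and 0.67 without KO MII library 1). Of all genes, 22.1% were apart in this direction at MII. At GVBD the groups of Alkbh3 overlapped (0.63 ± 0.59, edgeR adjusted p = 0.684). Over all stages the estimate was 0.66 ± 0.38 for Alkbh3 (adjusted p = 0.360) and 0.20 ± 0.28 for Alkbh2 (95% CI -0.39 to 0.79, adjusted p = 0.740). The interval for Alkbh2 lies inside 2-fold in either direction. Of the Alkbh2 exons, 29.5% overlap exons of Usp30 on the opposite strand, and whether reads were counted by strand is not given in the sources used here, so reads of Alkbh2 and Usp30 may be mixed there.

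**Figure D3:**
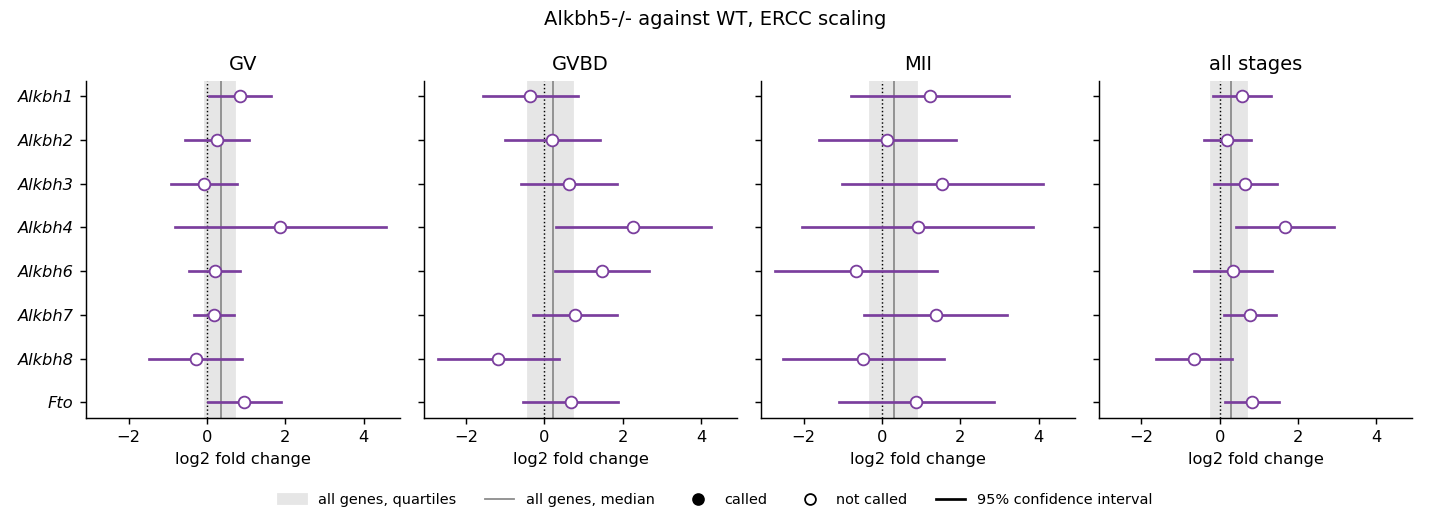
Log2 fold change of Alkbh5-/- against WT (points) with 95% confidence intervals (lines) for each of the 8 genes at GV, GVBD and MII and over all stages. The grey band and line give the quartiles and median of all tested genes, open points are genes that were not called, and no point is filled.

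During maturation of WT oocytes, by contrast, 4 of the 8 members fell. Between GV and MII, Alkbh3, Alkbh7, Alkbh6 and Alkbh1 were called lower and none was called higher, in a transcriptome of which 30.5% of 18816 tested genes were called lower and 0.393% higher. The median log2 change of all genes was -1.06 and that of the members -1.50. With TMM scaling the whole-table split was 3193 genes lower and 1329 higher instead of 5747 and 74, and 3 members were called, without Alkbh1.

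Alkbh3, the repair enzyme for single-stranded DNA and for RNA, fell furthest. Its ERCC-scaled counts went from 237 and 278 at GV over 333 and 187 at GVBD to 13.6 and 11.6 at MII. MII oocytes thus kept 4.88% of the GV level (log2 fold change -4.35 ± 0.75, adjusted p = 1.13e-07) with a difference from the median gene of -3.29, while at GVBD the level was still 101% of that at GV. Levels at GVBD overlapped those at GV, and both MII libraries lay far below either.

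Alkbh7 went from 1927 and 1523 at GV through 1420 and 936 at GVBD to 177 and 142 at MII, and 9.22% remained (log2 fold change -3.44 ± 0.55, adjusted p = 1.09e-08). Alkbh6 took another course. It was at 597 and 498 at GV, already at 207 and 154 at GVBD, and at 112 and 34.7 at MII, where 13.4% remained (-2.91 ± 0.60, adjusted p = 1.25e-05). Its GVBD libraries lay far below the GV libraries, at 32.9% of their mean, and 19.3% of all genes were lower there without overlap. That early difference had an unadjusted p of 0.00791 (log2 fold change -1.60 ± 0.45) and an adjusted p of 0.409 in a comparison that called 0 of 8 members and 0.0511% of 19566 genes. Alkbh6 was the 1 member with an unadjusted p under 0.05, against 6.25% of all genes. DESeq2 called Alkbh6 there (adjusted p = 0.0434), in a fit that called 383 of the 19566 genes.

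Alkbh1 was the weakest of the 4. Its level of 203 and 196 at GV was 272 and 188 at GVBD and 67.8 and 43.9 at MII, and 28.0% remained (log2 fold change -1.84 ± 0.68, adjusted p = 0.0241). The groups did not overlap, which was so for 58% of all genes in this direction. The call was lost with TMM scaling (-0.99, adjusted p = 0.0868) and without any of 3 libraries, namely WT GV 1 (-1.81, adjusted p = 0.236), WT GV 2 (-1.86, adjusted p = 0.221) and WT MII 2 (-1.55, adjusted p = 0.121). The other 3 calls held with each library left out. Alkbh1 shares 1.86% of its exonic bases with Slirp on the opposite strand, a gene with 749 to 34368 counts per library that itself fell (-5.60 ± 0.55, adjusted p = 1.26e-21).

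The remaining members were not called between GV and MII in WT. Alkbh2 kept its level, with 344 and 292 at GV and 399 and 239 at MII, or 100% of the GV mean, where the median log2 change of all genes was -1.06. Its 95% interval ran from -1.08 to 1.09, and relative to the median gene it stood 1.07 higher. Its raw reads went from 290 and 207 at GV to 500 and 496 at MII, and with TMM scaling the log2 change was 0.84 (adjusted p = 0.0413), under the 2-fold minimum for a call. At MII it was the most abundant member per kilobase (286 ± 101), ahead of Alkbh7 (155 ± 24.3). The overlapping gene Usp30 was lower at MII (-1.78 ± 0.52, adjusted p = 0.00316). Fto went to 45.2% of GV (-1.15 ± 0.70, adjusted p = 0.222), at the level of the median gene, and Alkbh8 to 60.2% (-0.74 ± 0.71, adjusted p = 0.493). Alkbh4 stood at 100% with an interval from -2.85 to 2.84, wide enough to hold a large change in either direction.

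**Figure D4:**
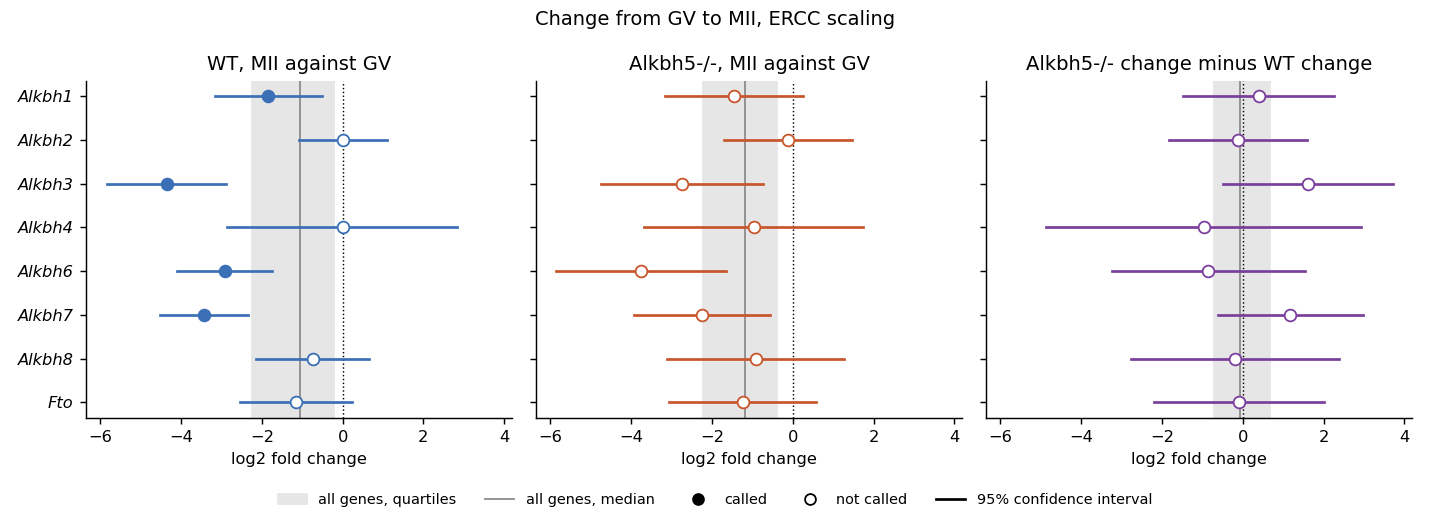
Log2 fold change from GV to MII (points) with 95% confidence intervals (lines) in WT, in Alkbh5-/- and as KO change minus WT change. Filled points were called, and the grey band and line give the quartiles and median of all tested genes. Alkbh3, Alkbh6, Alkbh7 and Alkbh1 are filled in WT, no gene is filled in the other panels, and every interval of the difference includes 0.

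In KO oocytes the same comparison called 0 of 8 members with edgeR, where 3.28% of 18777 genes were called. With edgeR, 3 members had an unadjusted p under 0.05, against 24.6% of all genes. DESeq2 called those 3, in a fit that called 3068 of the 18777 genes. Alkbh6 was at 663 and 592 at GV and at 77.1 and 15.8 at MII (log2 fold change -3.76 ± 0.95, adjusted p = 0.0563). Alkbh3 was at 217 and 270, then 53.0 and 20.1 (-2.74 ± 0.90, adjusted p = 0.103), and Alkbh7 at 1959 and 1952, then 636 and 186 (-2.25 ± 0.76, adjusted p = 0.108). None of these MII libraries reached the GV range, as was so for 61.4% of all genes. The KO MII libraries stood far apart from each other, library 1 being the higher for 7 of the 8 members before scaling. Without KO MII library 1 the log2 fold changes of Alkbh6, Alkbh3 and Alkbh7 were -5.3, -3.59 and -3.39. Without KO MII library 2 they were -3.02, -2.2 and -1.62.

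The difference between the genotypes in the GV to MII change was tested directly. It called 0 of 8 members and 0% of 20807 genes with edgeR, with 0 members and 5.75% of genes at an unadjusted p under 0.05. DESeq2 also called 0 members, in a fit that called 154 of the 20807 genes. Alkbh3 and Alkbh7 had the largest positive estimates, meaning a smaller loss in KO, of 1.61 ± 0.97 (95% CI -0.50 to 3.72) and 1.18 ± 0.82 (95% CI -0.61 to 2.98). At MII, 15.0% of the GV level of Alkbh3 remained in KO against 4.88% in WT, and 21.0% of Alkbh7 against 9.22%. Both KO shares drew on KO MII library 1, without which the estimates were 0.75 for Alkbh3 and 0.05 for Alkbh7. Fto lost about the same share in both, with 42.3% left in KO and 45.2% in WT (-0.09 ± 0.97, 95% CI -2.20 to 2.02). Between GV and GVBD in KO oocytes, edgeR called 0 of 8 members (0.22% of 19064 genes). DESeq2 also called 0 there, in a fit that called 232 of the 19064 genes. With edgeR 1 member, Alkbh1, had an unadjusted p under 0.05 (against 7.65% of all genes). It stood at 50.1% of the GV level at GVBD (log2 fold change -0.99 ± 0.41, adjusted p = 0.621).

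Genes that work with the members were read from the same fits. Of 18 partners and pathway neighbours, among them the ASCC helicase complex that acts with ALKBH3 and the Elongator and Ctu genes of the wobble uridine pathway to which ALKBH8 belongs, 0 were called between the genotypes at any stage or over all stages. From GV to MII in WT, 5 of the 18 were lower, a share close to the 30.5% of all tested genes. They were Mgmt, which repairs methylated guanine directly (log2 fold change -4.27 ± 0.66, adjusted p = 2.77e-09), Ctu1 (-4.22 ± 1.66, adjusted p = 0.0385), Elp2 (-3.20 ± 0.52, adjusted p = 1.75e-08), Elp6 (-2.24 ± 0.72, adjusted p = 0.00873) and Ascc1 (-1.52 ± 0.50, adjusted p = 0.0104). The Ctu1 value rests on 22 and 12 reads in the WT GV libraries and 0 and 4 in those of MII. The list's median was -0.60, against -1.06 for all genes.

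The counterparts of the m6A erasers, 18 tested writers and readers of m6A and m6Am, included no called gene between the genotypes. None was called from GV to MII in WT, where 30.5% of all tested genes were lower. Their median there was -0.41, against -1.06 for all genes. Of the other dioxygenases that use 2-oxoglutarate, 1 of 44 tested genes was called between the genotypes at GVBD, the histone demethylase Kdm2a (-2.32 ± 0.53, adjusted p = 0.0212), and 0 at GV, at MII and over all stages. All tested genes were called at 2.54% in the GVBD comparison. Its WT libraries carried Krt5, Krt14 and Krt1 and the blood transcripts, and the part of these in its calls was not tested. In WT, 14 of 42 were lower at MII than at GV and none higher, again near the 30.5% of all genes. Among them were the histone demethylases Kdm4b (-5.29 ± 1.39, edgeR adjusted p = 0.0009) and Kdm5a (-3.42 ± 0.59, edgeR adjusted p = 9.36e-08). Kdm4b had only 10 and 57 reads in the WT GV libraries and 0 and 4 in those of MII. Kdm5a had 391 and 838 reads at GV, and its MII libraries stood apart at 36 and 255. Of 14 genes that make or consume 2-oxoglutarate, the shared cosubstrate, 1 was lower in KO at GVBD, the serine pathway enzyme gene Psat1 (-2.64 ± 0.65, adjusted p = 0.0319). It was also among the 4 that were lower at MII in WT, with Idh3g, Idh3b and Got2.

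The course of a member across the libraries was compared with that of every other gene averaging 50 or more counts, by Pearson's r of log2 TMM-scaled CPM over the 12 libraries. These libraries share stage and genotype, so the values only describe likeness. Alkbh7 was most like Sdhb (r = 0.996), a subunit of mitochondrial complex II, and Myg1 (0.995), which codes for a nuclease. Alkbh3 was most like Szrd1 (0.987) and Dnajb11 (0.984), a chaperone of the endoplasmic reticulum. Alkbh6 was most like Gas8 (0.975) and Phkg1 (0.971), and Alkbh2 most like Uchl3 (0.968), a deubiquitinase gene, and Gpr149 (0.967). Among the members, Alkbh3 and Alkbh7 ran together (0.947) and Alkbh2 ran opposite to Alkbh3 (-0.889). On the ERCC scale the first pair stayed close (0.975), while the opposite course of Alkbh2 and Alkbh3 vanished (-0.088). Fto had no gene above 0.9 with TMM scaling, the closest being Col13a1 (0.899) and Fxyd6 (0.891), but 827 on the ERCC scale, led by D5Ertd579e (0.982). Alkbh4 had none on either scale (Crym closest on both, at 0.886 and 0.891), and Alkbh8 none with TMM scaling (AC141636.1, 0.868) and 1 on the ERCC scale (AC140207.3, 0.917).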

How the data were processed

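The deposited table held raw gene counts made by the authors, with no normalization. According to the study's methods, pooled oocytes were lysed with an ERCC mix and amplified by a SMART-seq protocol without molecular identifiers. The extraction notes given with the samples describe another, bulk preparation. The submitters' processing notes name cutadapt 1.9, HISAT2 2.0.4 and StringTie 1.3.4d and the build mm10, and the methods state that uniquely mapped reads were kept. The annotation release, use of strand and counting step are not given in the sources used here.

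Counts were fitted with edgeR 4.0.16 in R 4.3.3 (glmQLFit, glmQLFTest, two-sided) after filterByExpr, with library sizes proportional to summed ERCC counts. Each of 9 comparisons used the libraries of its own groups. P-values were Benjamini-Hochberg adjusted across the genes tested. SE is the log2 fold change over the square root of F. Precision is limited by 2 libraries per group, and p-values cover the spread between these libraries. DESeq2 1.42.0, TMM and median-of-ratios scaling, other filters, a pooled model, a block for the replicate number and single libraries left out were alternatives. The fit was also run on simulated counts, drawn with the same spread for all genes and with large changes in well-covered genes. That run does not show how the fit performs for members with few reads or with libraries far apart. All members were named, and likeness was ranked by r, taking the 2 closest genes per member. Members and gene lists were chosen with earlier results of these data known. Positions and transcript ends are from GENCODE M21.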

Additional observations from a re-analysis of the deposited data

How the results depend on the processing

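Counts of members called were the same under every alternative for KO against WT at GV, at MII and over all stages, for KO GVBD against GV, and for the genotype difference (0 throughout). At GVBD, requiring at least 10 counts in every compared library gave 1 member (Alkbh4, 2.27) instead of 0. For WT GVBD against GV, DESeq2 gave 1 (Alkbh6) instead of 0. For WT MII against GV, 4 members became 3, without Alkbh1, under TMM (-0.99), median-of-ratios scaling (-0.86) and no filter on low counts (-1.84, adjusted p = 0.0573), and leaving out 1 library gave 3 to 4. For KO MII against GV, 0 became 1 under TMM and median-of-ratios scaling and 2 with no filter. It became 3 with at least 10 counts in every library, with DESeq2, with all 12 libraries in 1 model and with the replicate block. Leaving out 1 library moved the log2 change of Alkbh6 between -5.3 and -3.02. The range was -3.59 to -2.2 for Alkbh3 and -3.39 to -1.62 for Alkbh7. It was -1.88 to -1.11 for Alkbh1, -2.17 to -0.26 for Alkbh8 and -2.04 to -0.72 for Fto. The number of members called also moved with the library left out, most without KO MII library 1. The cause was not tested.

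Replicate numbers did not pair the libraries (correlations of same-numbered deviations between -0.22 and 0.06), and the replicate block changed no other count of members. At GV it moved the number of all genes called from 19 to 0, and the crossed pairing gave 218 with 0 members; at MII the block moved 141 to 4 and the crossed pairing gave 0, with 0 members. Over all genes, the number called ranged across settings other than leaving out a library from 0 to 666 at GV, 12 to 953 at GVBD, 0 to 346 at MII, 278 to 1356 over all stages, 1 to 528 for WT GVBD against GV, 3839 to 5821 for WT MII against GV, 0 to 516 for KO GVBD against GV, 616 to 3068 for KO MII against GV and 0 to 346 for the genotype difference.

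Directions turned only for values that had not been called. Alkbh2 in KO against WT was -0.08 under TMM and -0.11 under median-of-ratios scaling at GV, -0.01 under both at GVBD, -0.01 and 0.00 at MII, and 0.00 and -0.02 over all stages. At GV, Alkbh6 was -0.13 and -0.15 and Alkbh7 -0.14 and -0.16. From GV to MII in WT, Alkbh4 was 0.87 and 1.02 and Alkbh8 0.02 and 0.14, in KO Alkbh2 was 1.11 and 1.14, and its genotype difference was 0.10 and 0.18. With the replicate block, Alkbh3 in WT GVBD against GV was -0.04, and in WT MII against GV Alkbh2 was -0.04 and Alkbh4 0.05.

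Leaving out 1 library at a time gave these ranges where a sign turned. For KO against WT they were 0.00 to 0.48 (Alkbh2) and -0.25 to 0.07 (Alkbh3) at GV, -0.22 to 0.78 (Alkbh2) at GVBD, and -0.18 to 0.56 (Alkbh2), -2.20 to 0.41 (Alkbh6) and -1.73 to 0.42 (Alkbh8) at MII. For WT GVBD against GV they were -0.09 to 0.45 (Alkbh1), -0.93 to 0.06 (Alkbh2), -0.46 to 0.37 (Alkbh3), -0.16 to 0.82 (Alkbh4) and -0.06 to 0.22 (Fto). For WT MII against GV they were -0.41 to 0.33 (Alkbh2) and -0.42 to 0.56 (Alkbh4). For KO they were -0.02 to 0.14 (Alkbh7) and -0.46 to 0.09 (Fto) at GVBD, and -0.34 to 0.15 (Alkbh2) and -1.62 to 0.28 (Alkbh4) at MII. For the genotype difference they were -0.04 to 0.74 (Alkbh1), -0.44 to 0.30 (Alkbh2), -1.61 to 0.29 (Alkbh4), -2.39 to 0.21 (Alkbh6), -1.44 to 0.71 (Alkbh8) and -0.89 to 0.43 (Fto). The depth behind Alkbh4, 6 to 48 reads per library, limits its values most.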
